A study of Mus musculus with 12 samples.

Results

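The 10 genes described here mark mesothelium and its cardiac form, the epicardium: Wt1, Msln, Upk3b, Upk1b, Upk1a, Krt8, Krt18, Krt19, Lrrn4 and Bnc1. Wt1 and Upk1a were chosen by their measured difference between the genotypes in earlier results of these data, and the others as known mesothelial markers. They were taken by gene symbol, and all 10 were among the 24061 symbols listed and among the 14107 that passed the filter on low counts. The mice were C57BL/6J males on chow, between 2 and 4 months of age, and their hearts were compared, 6 heterozygous for hexokinase II (HKII+/-) and 6 wild type (HKII+/+). Hk2 is the gene for hexokinase II, an enzyme that traps glucose in the cell as glucose 6-phosphate. The labels name no Cre, transgene or treatment, and do not say how the heterozygous allele was made, which part of the heart was taken, or how far vessels, fat and surface tissue were trimmed. HKII+/- replicate 11 and HKII+/+ replicate 13 carry a submitters' mark as possible outliers, so the genotype differences appear with and without these libraries.

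The epicardium is the mesothelial sheet that covers the heart, and like the mesothelium of the pleura and peritoneum it is a simple epithelium of mesodermal origin. In the embryo, epicardial cells under the control of Wt1 detach, enter the muscle wall and give rise to fibroblasts and mural cells, and in the adult the sheet is thin and mostly at rest. Mesothelium is recognised by a surface glycoprotein (Msln), uroplakins otherwise known from the bladder lining, keratins of simple epithelia, and the membrane protein Lrrn4. Wt1 itself is not limited to mesothelium, since endothelial cells are also known to express it. The question here was whether the level of Wt1 in HKII+/- hearts was shared by the other genes or stood alone, and how all of them varied with the amounts of atrial tissue and fat in a sample.

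Total counts ranged from 17263209 to 51556592 per library. Hk2 measured 256 to 354 CPM (counts scaled to library size, with TMM factors) in the 5 unmarked HKII+/- libraries and 471 to 542.5 CPM in the 5 unmarked HKII+/+ libraries. The library labelled HKII+/- replicate 11 held 568 CPM, above the unmarked HKII+/+ range, and HKII+/+ replicate 13 held 653 CPM. The TMM factors of these libraries were 0.787 and 0.76, which raise their CPM, against 0.992 to 1.09 in the unmarked libraries. The value of replicate 11 therefore does not settle whether its label is right. Atrial markers (Myl7, Myl4, Sln, Nppa, Bmp10, Mybphl, Stard10) summed to 348 CPM in HKII+/- replicate 19 and 453 CPM in HKII+/- replicate 22, against 2452 to 17071 CPM in the other 10 libraries. In HKII+/- replicate 11, airway and alveolar markers summed to 372 CPM, against 0.567 to 1.97 CPM in the other 11 libraries, fat markers to 1365 CPM and fibroblast markers to 6313 CPM. Most of that fibroblast sum was Col1a1 (3659 CPM) and Col1a2 (2540 CPM). Dcn, Lum and Pdgfra of the same list were low there, at 78, 3.4 and 33.2 CPM. The unmarked HKII+/- libraries held at least 355.7, 45.5 and 43.75 CPM of these genes. Ventricular markers summed to 54567 to 77388 CPM in the unmarked libraries, 178533 CPM in HKII+/- replicate 11 and 197354 CPM in HKII+/+ replicate 13. Most of each sum was Myh6 (125862 CPM in replicate 11, 130935 CPM in replicate 13), and Myl3, Tnnt2 and Mybpc3 were also higher in both. Myl2 of the same list was not. It measured 2260 CPM in replicate 11, against 4219 to 6705 CPM in the unmarked HKII+/- libraries. In replicate 13 Myl2 lay within the 4479 to 5756 CPM of the unmarked HKII+/+ libraries. Endothelial markers summed to between 657 and 1049 CPM. Nothing in the labels says that libraries of a genotype come from separate animals beyond their separate titles, so p-values measure the spread between these samples.

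Wt1 encodes a zinc finger transcription factor of the epicardium. It lies on chromosome 2 from 105126529 to 105173616 on the plus strand of GRCm38 (ENSMUSG00000016458.14) and codes for protein. Its level in HKII+/- hearts was 12.6 (replicate 11), 12.4 (12), 7.69 (16), 8.24 (19), 8.94 (20) and 8.64 CPM (22). Its level in HKII+/+ hearts was 8.85 (replicate 13), 6.98 (14), 6.43 (15), 6.38 (17), 7.45 (18) and 7.88 CPM (21). The groups overlapped: with all 12 libraries 3 HKII+/- values lay above every HKII+/+ value, and among the 10 unmarked libraries 4 of 5 did, replicate 16 being the exception. Complete separation upwards in HKII+/- was seen in 0.0142% of all tested genes with 12 libraries and in 0.241% with the unmarked ones, and in 0 of the 10 members. Over the unmarked libraries Wt1 averaged 9.19 ± 1.88 CPM with the heterozygous genotype (SD, n = 5) and 7.02 ± 0.647 CPM with the wild type (SD, n = 5). The fitted log2 fold change, HKII+/- over HKII+/+, was 0.42 (SE 0.16) from 12 libraries and 0.40 (SE 0.13) from the 10 unmarked. Leaving HKII+/- replicate 12 out of the unmarked libraries brought it to 0.26 (SE 0.09). Wt1 was chosen for this difference, so these values describe it and no test is given. Its head-to-head neighbour Wt1os, a noncoding RNA that starts 18 bases away on the other strand and shares no exon base with it, measured 0.11 to 0.393 CPM.

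Upk1a, a tetraspanin of uroplakin plaques, was the other member already known to be higher in HKII+/- hearts from earlier results, and it too is only described. It measured 0.723 (replicate 11), 1.1 (12), 0.962 (16), 0.969 (19), 1.24 (20) and 1.58 CPM (22) in HKII+/- hearts. In HKII+/+ hearts it measured 0.853 (replicate 13), 0.646 (14), 0.685 (15), 1.11 (17), 0.607 (18) and 0.683 CPM (21). The groups overlapped, since HKII+/+ replicate 17 exceeded 4 of the 6 HKII+/- values. Without the marked libraries the mean was 1.17 ± 0.258 CPM for HKII+/- (SD, n = 5), against 0.747 ± 0.208 CPM for HKII+/+ (SD, n = 5). These values rest on 11 to 81 counts per library. On the log2 scale the fitted difference was 0.53 (SE 0.23) from 12 libraries and 0.66 (SE 0.22) from the 10 unmarked.

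No difference was detected for the 8 remaining members. Without the marked libraries their fitted log2 fold changes lay between -0.36 (Krt18) and -0.13 (Lrrn4), all below 0, with each 95% interval including 0. With all 12 libraries they lay between -0.05 (Bnc1) and 1.0 (Krt8), 7 of 8 above 0, again with each interval including 0, and the value of Upk3b (0.002) turned negative with upper-quartile factors, with library totals alone and with no filter on low counts. In edgeR's quasi-likelihood test 0 of these 8 passed a Benjamini-Hochberg adjusted p of 0.05 over all genes, with all libraries (0% of all tested genes passed) or without the marked ones (0.00707% passed). At an unadjusted p below 0.05 stood 0 of these 8 in both fits, against 37 of 14107 and 396 of 14139 over all tested genes, so a count of 0 is near the background. Over all 10 members the median log2 fold change came to 0.40 from 12 libraries and -0.23 from the 10 unmarked, against -0.001 and -0.005 over all genes tested. Of the 10, 9 were above 0 with all libraries, where 49.5% of all genes were, and 2 (Wt1 and Upk1a) without the marked ones, where 47.3% were. Wt1 and Upk1a were chosen for being higher in this contrast, which raises the medians and counts over all 10.

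**Figure D1:**
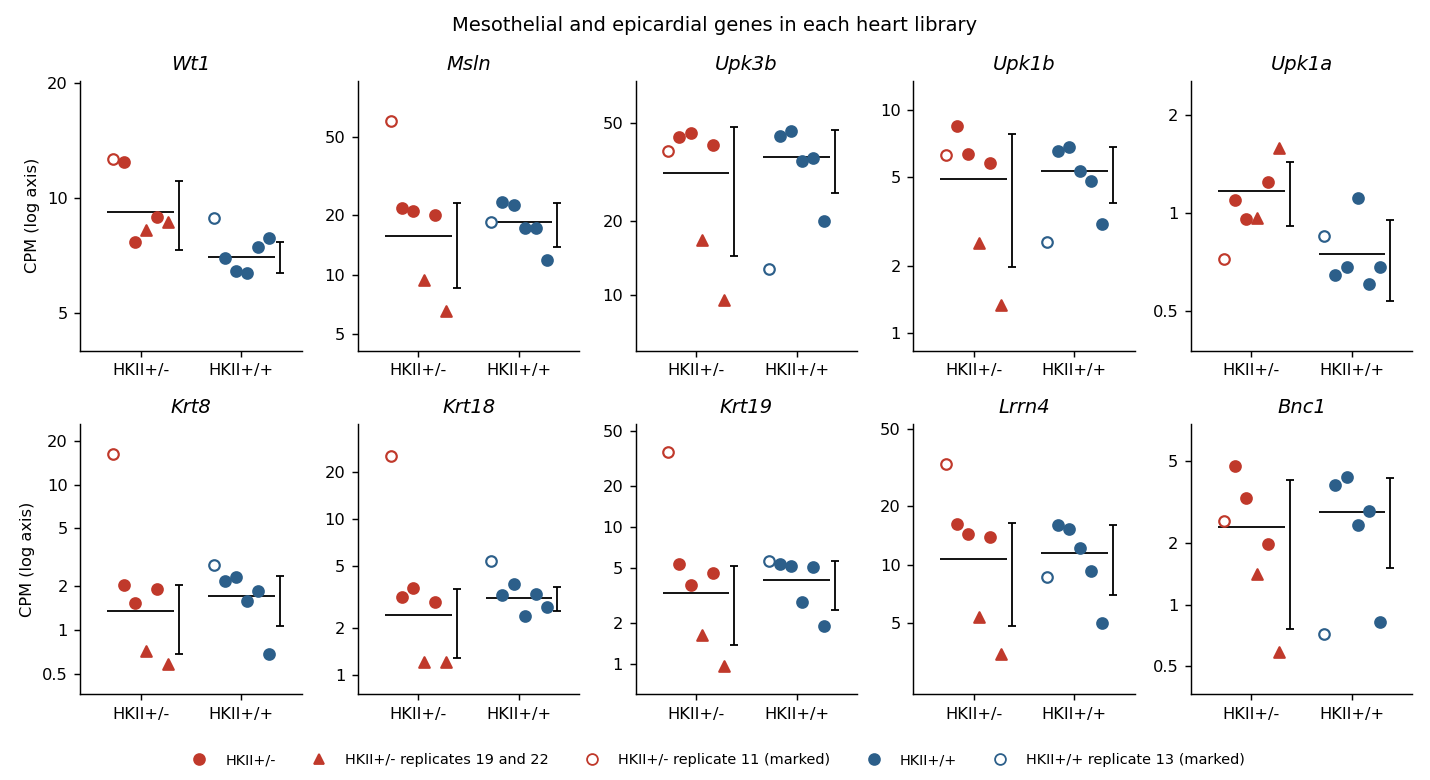
Level of each of the 10 genes in each library, in CPM on a log axis, with HKII+/- libraries left of HKII+/+ libraries; lines are means and bars SD of the 5 unmarked libraries per genotype. HKII+/- replicates 19 and 22 (triangles) are low in 8 of the 10 genes and lie within the range of the other HKII+/- libraries, or above it, for Wt1 and Upk1a.

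The surface proteins of the sheet varied together over the libraries. Upk3b, a uroplakin and the member with the highest level per length, lies on chromosome 5 from 136038496 to 136046487 on the plus strand. It ranged from 9.52 over a median of 39.8 to 45.6 CPM in HKII+/- and from 12.8 over a median of 35.5 to 46.4 CPM in HKII+/+ hearts. Its low values were HKII+/- replicates 22 (9.52) and 19 (16.8) and HKII+/+ replicates 13 (12.8) and 21 (20.1), and the other 8 libraries held 35.1 CPM or more. Msln, which encodes the membrane-anchored glycoprotein mesothelin (chromosome 17, 25748613 to 25754378, minus strand), ranged from 6.57 over 20.5 to 60.1 CPM in HKII+/- and from 11.8 over 17.9 to 23.4 CPM in HKII+/+ hearts. Its highest value was in HKII+/- replicate 11, and among the unmarked libraries replicates 22 (6.57) and 19 (9.4) were again the lowest. Lrrn4, a leucine-rich repeat membrane protein, ranged from 3.44 over 14.1 to 33.1 CPM in HKII+/- and from 4.96 over 10.7 to 15.9 CPM in HKII+/+ hearts. Upk1b, the tetraspanin related to Upk1a, ranged from 1.33 over 6.05 to 8.45 CPM in HKII+/- and from 2.56 over 5.07 to 6.83 CPM in HKII+/+ hearts. Their unmarked means gave log2 fold changes of -0.22 (SE 0.38, Upk3b), -0.24 (SE 0.31, Msln), -0.13 (SE 0.41, Lrrn4) and -0.14 (SE 0.41, Upk1b).

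RefSeq's promoter table for GRCm38.p6 held 6 of the 10 members. The bases upstream of the outermost annotated start are printed for Upk3b and Lrrn4, picked after the search because they hold the motif CATTCC, and for Upk1a, which does not. Krt8, Krt18 and Bnc1, whose levels also followed Upk3b, lack the motif too. Each reads 5′ to 3′ on the gene's strand, at chr5:136038246-136038495 (plus strand), chr2:132880892-132881112 (minus strand) and chr7:30612848-30612984 (minus strand). Capitals mark CATTCC, searched on both strands, which is the core that TEAD factors bind.
Upk3b: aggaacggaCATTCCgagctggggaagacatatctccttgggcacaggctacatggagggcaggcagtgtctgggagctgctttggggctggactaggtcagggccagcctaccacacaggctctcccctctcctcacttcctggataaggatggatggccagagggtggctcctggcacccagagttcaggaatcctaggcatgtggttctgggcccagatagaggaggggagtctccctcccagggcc
Lrrn4: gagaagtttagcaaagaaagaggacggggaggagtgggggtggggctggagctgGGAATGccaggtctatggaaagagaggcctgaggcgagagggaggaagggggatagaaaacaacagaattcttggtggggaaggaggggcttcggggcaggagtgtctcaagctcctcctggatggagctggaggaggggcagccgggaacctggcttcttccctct
Upk1a: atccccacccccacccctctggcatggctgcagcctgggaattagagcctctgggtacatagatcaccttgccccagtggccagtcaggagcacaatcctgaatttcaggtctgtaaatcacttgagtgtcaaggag
The motif stands 241 bases before the RefSeq start of Upk3b and, as GGAATG, 196 bases before that of Lrrn4. In the 250 bases before the start it occurs in 2 of the 6 members found and in 12.6% of the 27025 promoters of the table. The motifs TATAAA and CCAAT occur in 0 of the 6, against 13% and 34.5% of all promoters, and GGGCGG occurs in 1 of the 6 (Bnc1), against 32.9%. A match describes these letters and is not evidence of binding.

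The keratins form the filaments of simple epithelia, Krt8 as the type II partner of the type I keratins Krt18 and Krt19. Krt8 measured 16.2 (replicate 11), 2.04 (12), 1.53 (16), 0.727 (19), 1.92 (20) and 0.587 CPM (22) in HKII+/- hearts, against 2.82 (replicate 13), 2.17 (14), 2.32 (15), 1.59 (17), 1.88 (18) and 0.683 CPM (21) in HKII+/+ hearts. Replicate 11 stood apart, at 5.75 times the highest other library for Krt8, 4.67 times for Krt18 (25.1 CPM) and 6.13 times for Krt19 (35 CPM). It was the highest of the 12 libraries for 6 of the 10 members, as for 31.1% of all tested genes. That library also held 20.9 CPM of Scgb1a1, the secretory protein of airway club cells, where the other 11 libraries held at most 1 count, and 25 counts of the epithelial adhesion gene Epcam against at most 4. Krt7, a keratin of the wider list, was at 25.1 CPM there. The part of such epithelium in the keratin values of this library was not tested. Without the marked libraries the log2 fold changes of Krt8, Krt18 and Krt19 were -0.36 (SE 0.38), -0.36 (SE 0.30) and -0.32 (SE 0.43), and without replicate 11 alone they were -0.48, -0.52 and -0.40. Krt8 has a processed pseudogene and shares exon bases with a noncoding gene on the other strand, and the strand setting of the counting is not given, so its value is uncertain.

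Bnc1 encodes basonuclin, a zinc finger protein known from keratinocytes and germ cells. It ranged from 0.587 over 2.26 to 4.74 CPM in HKII+/- and from 0.721 over 2.65 to 4.19 CPM in HKII+/+ hearts. The lowest values were HKII+/- replicate 22 and HKII+/+ replicates 13 and 21. Its log2 fold change was -0.26 (SE 0.50) without the marked libraries. Bnc1 shares 98 bases of its 4.646 kb of exon with a pseudogene on the other strand. Reads within these bases cannot be told apart without strand.

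**Figure D2:**
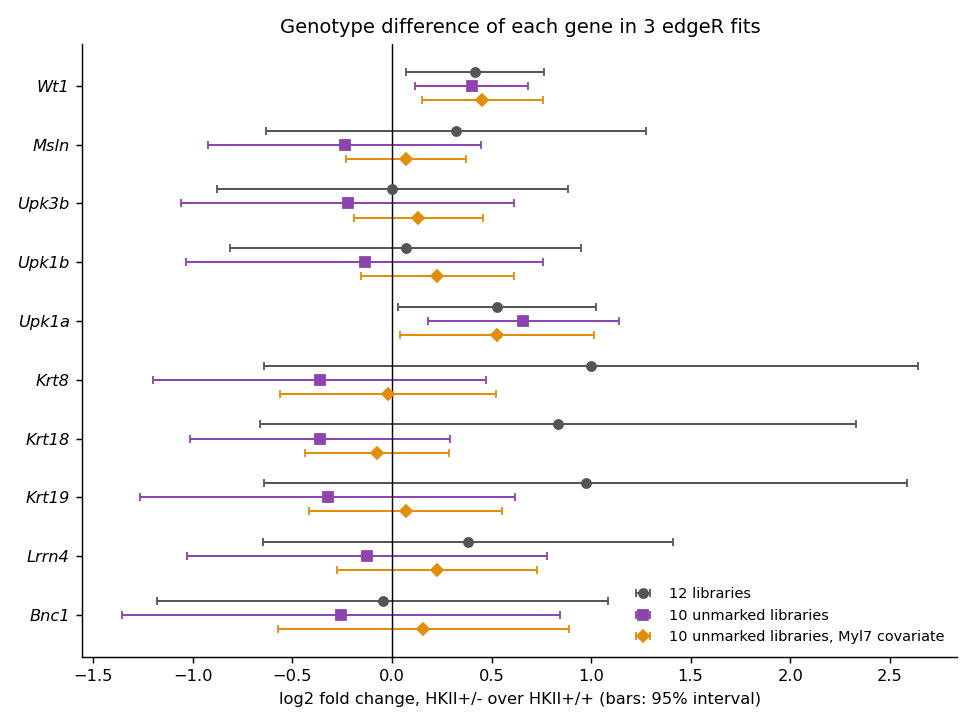
Fitted log2 fold change of each gene, HKII+/- over HKII+/+, with 95% intervals, from 12 libraries (circles), the 10 unmarked libraries (squares) and the same 10 with log2 CPM of Myl7 as a covariate (diamonds). Wt1 and Upk1a were chosen by this contrast, so their intervals show spread only and are no test; the intervals of the other 8 genes include 0 in each of the 3 fits.

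Per length, the 10 genes were expressed at low levels. Over the 10 unmarked libraries Upk3b averaged 9.60 ± 3.83 RPKM (CPM divided by exon length in kilobases; SD, n = 10), Msln 5.59 ± 1.93, Lrrn4 2.98 ± 1.33, Upk1b 2.45 ± 1.05, Krt19 1.99 ± 0.921 and Krt18 1.92 ± 0.634 RPKM. Wt1 averaged 1.31 ± 0.282 RPKM, Krt8 0.789 ± 0.333, Upk1a 0.675 ± 0.221 and Bnc1 0.563 ± 0.307 RPKM. Neighbours in this order overlapped within 1 SD in each case. For scale, the atrial light chain Myl7 averaged 820.3 ± 532 RPKM and the endothelial adhesion gene Pecam1 39.0 ± 1.76 RPKM. Of the uroplakins that partner these proteins in the bladder, Upk2 had at most 5 counts in a library, and Upk3a and Upk3bl had 0 counts in all 12 libraries.

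The libraries with the lowest atrial marker levels were also low in 8 of the 10 members. In HKII+/- replicates 19 and 22, where Myl7 measured 19.1 and 0.469 CPM, the mean of the 2 libraries came to 33.7% (Upk3b), 41.1% (Msln), 34.6% (Lrrn4), 32.6% (Upk1b), 37.2% (Krt8), 38.5% (Krt18), 30.7% (Krt19) and 32.9% (Bnc1) of the mean of the other 8 unmarked libraries. Wt1 stood at 105% and Upk1a at 145% by the same measure. Both were chosen for being higher in HKII+/-, and the other 8 include HKII+/+ libraries, which can raise these percentages. Within HKII+/-, Wt1 measured 8.24 and 8.64 CPM in replicates 19 and 22, against 12.4, 7.69 and 8.94 CPM in replicates 12, 16 and 20. Upk1a measured 0.969 and 1.58 CPM, against 1.1, 0.962 and 1.24 CPM. Both libraries lay below all of the other 8 for 5 members (Msln, Upk3b, Upk1b, Krt18 and Krt19), as 8.38% of all tested genes did, and for the other 3 HKII+/+ replicate 21 lay below replicate 19. Both libraries are HKII+/-, so the low values enter that genotype only. As bulk RNA, fewer mesothelial cells and less of these transcripts per cell cannot be told apart. Smooth muscle markers summed to 223 and 209 CPM in replicates 19 and 22, below the 247.5 to 547 CPM of the unmarked HKII+/+ libraries, and fat markers to 29.4 and 28.4 CPM, against 48.1 to 294 CPM. Endothelial markers summed to 1049 CPM in replicate 19, the highest of the 12 libraries, and 991 CPM in replicate 22, against 857 to 1014 CPM in the unmarked HKII+/+ libraries. The part of these tissues in the low values was not tested.

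Among the other 8 unmarked libraries Myl7 ran from 230.3 to 903 CPM, with replicates 19 and 22 separated from them by more than 2 on the log2 scale, so correlations with Myl7 are given over these 8 only. On log2(CPM + 0.1), Pearson's r with Myl7 was 0.91 for Krt19, 0.87 for Upk3b, 0.86 for Krt8, 0.83 for Msln, 0.78 for Lrrn4, 0.76 for Upk1b, 0.71 for Bnc1 and 0.64 for Krt18. It was 0.25 for Wt1 and 0.20 for Upk1a. Of all tested genes 6.42% had an r above 0.7, as 7 of the 10 members did. By exact two-sided permutation with Benjamini-Hochberg adjustment over the 20 relations computed with Myl7 and Adipoq, 5 members passed 0.05 (lowest adjusted p = 0.0305, Krt19), and by Spearman's rho 0 passed (rho 0.31 to 0.62, lowest adjusted p = 0.256). The 5 depended on pooling with the Adipoq relations over 10 libraries. With Adipoq taken over the same 8 libraries, 0 members passed with Myl7 (exact permutation of r, lowest adjusted p = 0.113). The relation with Myl7 rested on HKII+/+ replicates 17 and 21, which were lowest in Myl7. Without them r lay between -0.62 (Bnc1) and 0.12 (Krt8) for the 8 members over the 6 libraries left.

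Adipoq, the adipocyte hormone adiponectin, was the marker of fat. It measured 267 (replicate 11), 21.9 (12), 13.8 (16), 0.436 (19), 10.9 (20) and 0.156 CPM (22) in HKII+/- hearts, against 0.393 (replicate 13), 30.2 (14), 14.2 (15), 9.25 (17), 1.88 (18) and 5.87 CPM (21) in HKII+/+ hearts. Over the 10 unmarked libraries r with Adipoq was highest for Msln (0.92, rho 0.98, adjusted p = 0.0103 and 0.0006 by permutation), Upk1b (0.91, rho 0.95, adjusted p = 0.0103 and 0.001) and Upk3b (0.89, rho 0.87, adjusted p = 0.0141 and 0.0104). All 8 members other than Wt1 and Upk1a passed 0.05 by r, and 7 of them by rho, Krt18 being the exception (adjusted p = 0.124 by permutation). Of all tested genes 10% had an r above 0.7 with Adipoq, as these 8 members did. For Wt1 r was -0.05 (rho -0.18) and for Upk1a -0.37 (rho -0.26), with adjusted p = 0.889 and 0.353 by permutation. Without replicates 19 and 22, the libraries farthest from the median of Adipoq, r of the 8 members lay between 0.18 (Krt18) and 0.67 (Lrrn4) and 0 passed. Without replicate 19 alone r of the 8 lay between 0.72 and 0.91 and narrowly missed 0.05 (exact permutation, adjusted p = 0.0515 to 0.0526), with 7 passing by rho. Without replicate 22 alone r lay between 0.57 and 0.85 (exact permutation, adjusted p = 0.0629 to 0.126), with 6 passing by rho. By rho Msln (0.95), Lrrn4 (0.95) and Upk1b (0.90) still passed over the 8 libraries left (exact permutation, adjusted p = 0.0114, 0.0114 and 0.0304). Among the unmarked libraries Myl7 and Adipoq were both lowest in replicates 19 and 22, and atrial tissue and fat cannot be told apart there.

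**Figure D3:**
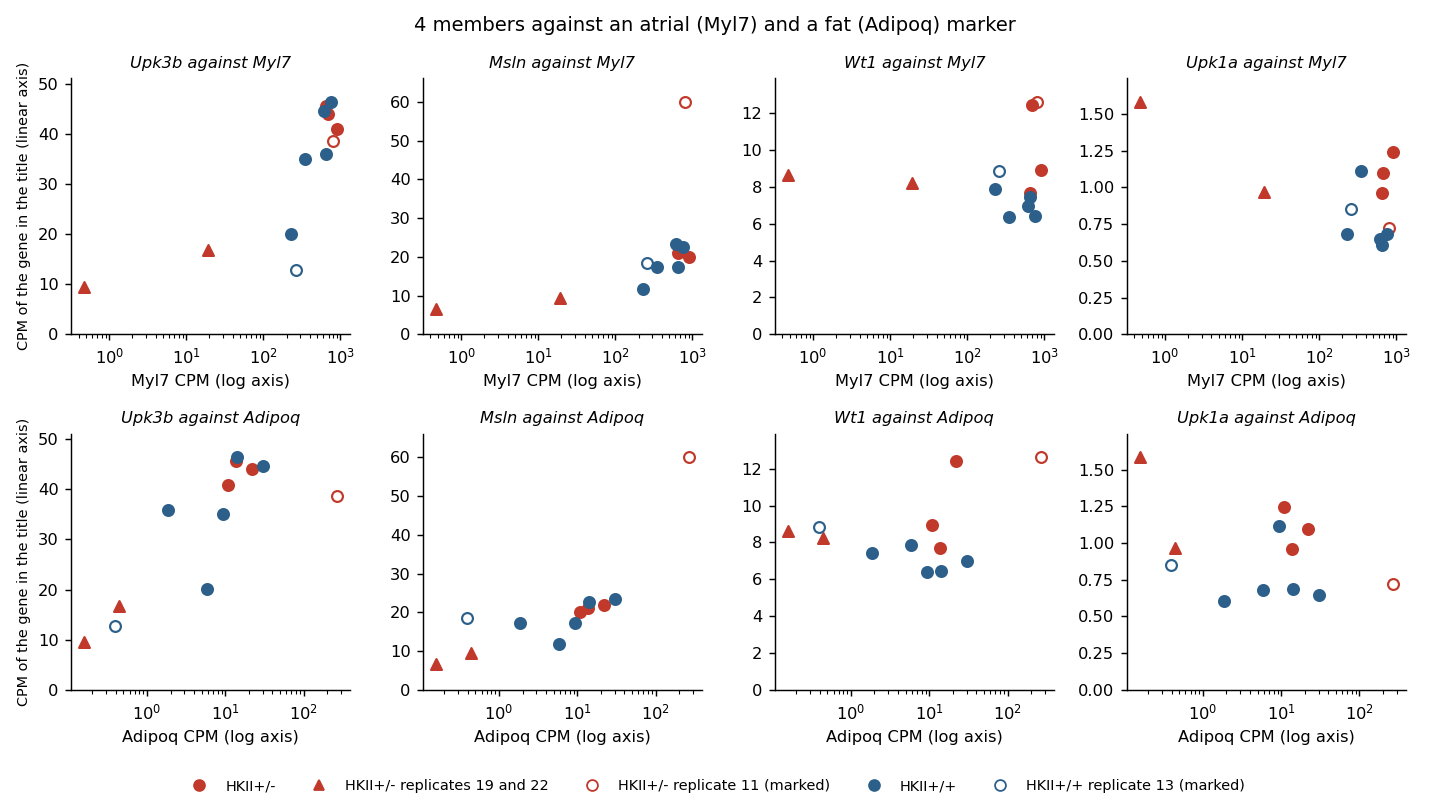
CPM of Upk3b, Msln, Wt1 and Upk1a (linear axes) against CPM of Myl7 (top) and Adipoq (bottom, log axes), one point per library. Upk3b and Msln are lowest or nearly so where Myl7 and Adipoq are lowest (HKII+/- replicates 19 and 22, triangles), where Wt1 measured 8.24 and 8.64 CPM and Upk1a 0.969 and 1.58 CPM.

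Among themselves, the 8 members other than Wt1 and Upk1a, a grouping made after their values were seen, had pairwise r between 0.75 and 0.99 (median 0.93, 28 pairs) over the 10 unmarked libraries. Without replicates 19 and 22 these ran from 0.42 to 0.98 (median 0.89). The r of Wt1 with the same 8 genes ran from -0.15 to 0.01 over the 10 libraries and from -0.01 to 0.33 without replicates 19 and 22. That of Upk1a ran from -0.57 to -0.26 and from -0.40 to 0.38, and Wt1 with Upk1a stood at 0.46 in both sets. These correlations share libraries and are given as a description.

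**Figure D4:**
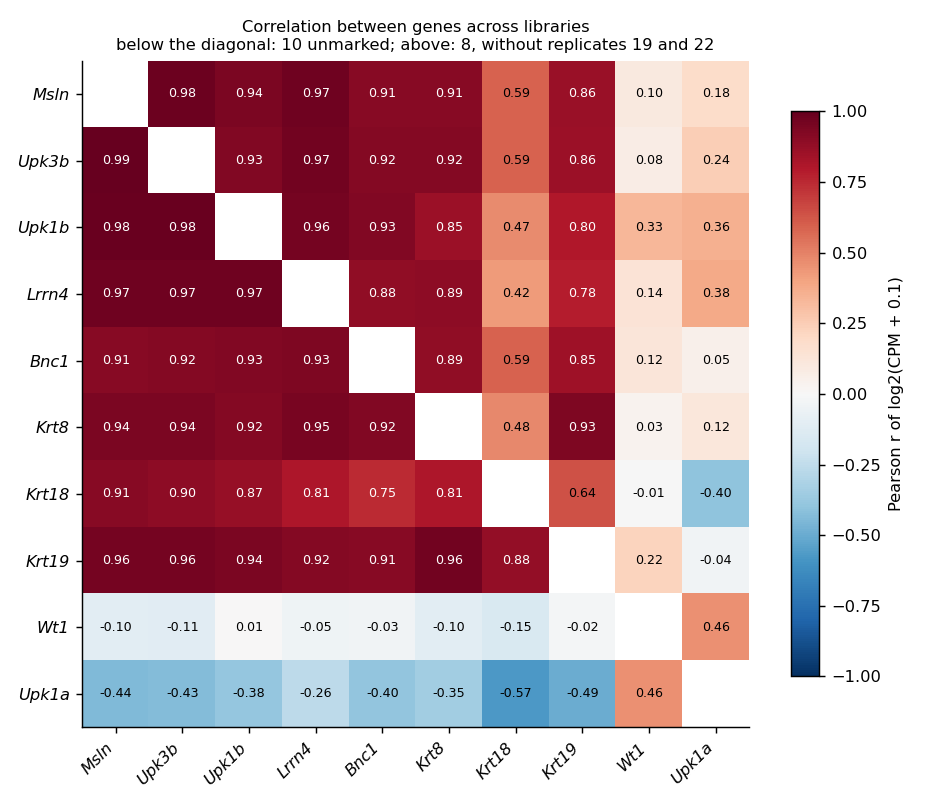
Pearson r of log2(CPM + 0.1) for each pair of the 10 genes, over the 10 unmarked libraries below the diagonal and over the 8 left without HKII+/- replicates 19 and 22 above it. The 8 genes from Msln to Krt19 form a block of high r below the diagonal (0.75 or more); above it Krt18 drops to between 0.42 and 0.64, and Wt1 and Upk1a stand outside the block in both.

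The genes whose pattern was most like that of Upk3b over the 10 unmarked libraries, of 14106 others, were Msln (r = 0.99), Cybrd1, a ferric reductase (0.99), Gpc3, the proteoglycan glypican 3 (0.99), C2, a complement component (0.98), and Upk1b (0.98). Each kept an r of at least 0.929 without replicates 19 and 22. For Wt1 they were Ier5, an immediate early response gene (r = 0.96), Baz1b, a chromatin regulator (0.95), Ppp1r3b, a glycogen-targeting subunit of protein phosphatase 1 (0.95), Dynll1, a dynein light chain (0.94), and Rin3, a regulator of Rab5 (0.94). Without replicates 19 and 22 these stood at 0.94 to 0.97. In the order of likeness to Wt1, Upk1a was the member placed highest, at rank 1397 of 14106, Upk1b followed at 6402, and Krt18 was last at 8917. Of all tested genes 2.52% had an r above 0.7 with Wt1, as 0 of the other 9 members did. With Upk3b 9.97% had, as 7 of the other 9 members did, and over the 8 libraries without replicates 19 and 22 it was 8.91% of genes and 6 of 9 members. Ier5 measured 51.8 to 83.7 CPM in HKII+/- and 39.6 to 54.7 CPM in HKII+/+ hearts over the unmarked libraries. Wt1 was chosen by the genotype contrast, so a genotype difference in the genes most like it follows from that choice. The genes most like Upk3b and Wt1 were picked over these same libraries, so their r without replicates 19 and 22 is no separate check.

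The ratio of Wt1 to Upk3b counts within a library was 32.7% (replicate 11), 28.3% (12), 16.9% (16), 49% (19), 21.8% (20) and 90.8% (22) in HKII+/- hearts, against 69.2% (replicate 13), 15.7% (14), 13.9% (15), 18.2% (17), 20.7% (18) and 39.2% (21) in HKII+/+ hearts. HKII+/- replicate 22 lay above every HKII+/+ value and HKII+/+ replicates 14 and 15 below every HKII+/- value, while the rest overlapped. The highest ratios were in the libraries lowest in Upk3b. With log2 CPM of Upk3b as a covariate over the 10 unmarked libraries, the fitted difference of Wt1 was 0.43 (SE 0.14) and that of Upk1a 0.57 (SE 0.22). With log2 CPM of Myl7 as the covariate they were 0.45 (SE 0.14) and 0.53 (SE 0.22). Without the marked libraries and replicates 19 and 22 they were 0.49 (SE 0.15) and 0.55 (SE 0.24). In edgeR 0 members passed the adjusted test in either covariate fit, and 0.00707% of all tested genes passed in each.

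With Myl7 as a covariate the other 8 members moved towards 0 or above it. Their log2 fold changes lay between -0.07 (Krt18) and 0.23 (Lrrn4 and Upk1b), 6 of 8 above 0, where 48.9% of all tested genes were. The median over all 10, which is raised by the choice of Wt1 and Upk1a from this contrast, was 0.15, against -0.003 over all genes tested.

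Of the wider mesothelial and epicardial list 17 of 18 genes were in the files and 15 passed the filter. In edgeR 0 of the 15 passed the adjusted test in either direction, with all libraries, without the marked ones, or with the Myl7 covariate. At an unadjusted p below 0.05 stood 0, 0 and 1 of the 15, near the background of 37 of 14107, 396 of 14139 and 689 of 14139 tested genes. Their median log2 fold change was 0.08, -0.05 and 0.17 in these fits, with 11, 5 and 15 of 15 above 0. Over all tested genes the medians were -0.001, -0.005 and -0.003, with 49.5%, 47.3% and 48.9% above 0. The Myl7 covariate is set mostly by HKII+/- replicates 19 and 22, so the 15 of 15 is a description. The 6 with the highest level per length were Efemp1, an extracellular matrix fibulin (9.20 ± 2.96 RPKM, n = 10), Gpm6a, a membrane glycoprotein (5.84 ± 2.24), the claudin Cldn15 (3.75 ± 0.997), Aldh1a2, the retinoic acid synthesising enzyme of embryonic epicardium (3.64 ± 0.942), Tcf21, a transcription factor of epicardial derivatives and cardiac fibroblasts (3.56 ± 0.682), and Nkain4 (3.41 ± 1.30). Without the marked libraries their log2 fold changes were -0.04 (SE 0.29), -0.05 (SE 0.35), 0.02 (SE 0.23), 0.01 (SE 0.22), 0.01 (SE 0.17) and -0.15 (SE 0.35) in that order. In replicates 19 and 22 Gpm6a and Nkain4 each averaged 38.5% of the other 8 unmarked libraries, Efemp1 48.8%, Cldn15 56.3%, Aldh1a2 67.1% and Tcf21 89.5%. Calretinin (Calb2), a mesothelial marker of human pathology, had 0 counts in all 12 libraries.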

How the data were processed

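RNA was measured in 12 heart libraries, 6 HKII+/- and 6 HKII+/+. Per the labels' protocols, polyA RNA was sequenced as single-end reads, and the submitters' processing notes name STAR 2.4.0, featureCounts 1.4.4 and the builds mm10 and GRCm38. The deposited values are raw counts per gene symbol, with no normalization by the authors. Which annotation and strand setting the counting used is not given in the sources used here. Groups came from the sample titles. Replicates were checked for duplicate deposits by a chi-square over genes (lowest value per degree of freedom 7.03).

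The 10 members and all lists were chosen with earlier results of these data known, Wt1 and Upk1a from this genotype contrast. The test was edgeR 4.0.16 in R 4.3.3 (quasi-likelihood, TMM, filterByExpr minimum count 10, Benjamini-Hochberg at 0.05 over all genes) on all 12 libraries. CPM use TMM-adjusted totals. RPKM use exon lengths of GENCODE vM21, for the 22707 symbols that matched a single gene. Correlations used a pseudocount of 0.1 and permutation (exact below 10 libraries, otherwise 100000 resamples). Libraries separated by more than 2 log2 units in the x gene were left out, a limit set after seeing the data. Genes named were the members, Myl7, Adipoq, the 6 highest of the wider list, the 5 most like Upk3b and Wt1, relatives of members, Epcam and airway markers, and Hk2. Pecam1, Wt1os, Calb2 and Upk3bl were added after their values were seen.

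On simulated counts with 12 libraries (14001 genes) 0% of genes changed by 1.5-fold and 12% of those changed by 2-fold were recovered. With the 10 unmarked libraries (14104 genes) these were 64% and 79%. The processing was varied by scaling (RLE, upper quartile, totals), by filter, by tool (DESeq2 1.42.0, and voom of limma 3.58.1 with quality weights), by leaving out libraries, by a Myl7 covariate, by pseudocount and, added after seeing the data, an Upk3b covariate and leaving out the libraries lowest in Myl7.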

Additional observations from a re-analysis of the deposited data

Results flagged for a closer look

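Krt8 in HKII+/- replicate 11 (16.21 CPM, next highest of its genotype 2.045) and Krt18 in the same library (25.14 CPM, next highest 3.627) lay far from the other 5 HKII+/- libraries by Dixon's test on log2(CPM + 0.1) (ratio 0.64 and 0.647, 95% critical value 0.625). Of 20 groups of 6 libraries examined (10 genes in 2 genotypes) 2 passed the critical value, and chance alone passes about 1 in 20. This is a library the submitters marked, and airway and alveolar markers summed to 372 CPM in it, against 0.567 to 1.97 CPM in the other 11 libraries. Their part in the keratin values was not tested.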

How the results depend on the processing

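In edgeR 0 genes passed the adjusted test with all 12 libraries (37 at unadjusted p below 0.05), and DESeq2 called 0 (64 at unadjusted p below 0.05), giving no adjusted p for Krt8 and Krt18. The count was 2 with voom quality weights, 1 without both marked libraries, 1 with the Myl7 covariate, 1 with the Upk3b covariate and 1 without the marked libraries and replicates 19 and 22, and 0 to 2 when each library was left out. Of the 10 members 0 passed in any of these settings. The cause of these changes was not tested. No paired analysis was possible because the 2 genotypes share no replicate number.

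The log2 fold changes of Wt1 and Upk1a stayed above 0 in each setting that gave a value (Upk1a did not pass a minimum count of 30), with leave-one-out ranges of 0.26 (Wt1, without HKII+/- replicate 12 and the marked libraries) to 0.49 and 0.39 to 0.85. The other 8 changed sign in at least 1 setting. Upk3b was -0.0098 with upper-quartile factors, -0.034 with library totals and -0.0126 with no filter. With voom quality weights the values were -0.23 (Msln), -0.23 (Upk3b), -0.26 (Upk1b), -0.39 (Krt8), -0.29 (Krt18), -0.33 (Krt19) and -0.21 (Lrrn4). Without both marked libraries they were -0.24 (Msln), -0.22 (Upk3b), -0.14 (Upk1b), -0.36 (Krt8), -0.36 (Krt18), -0.32 (Krt19) and -0.13 (Lrrn4). With the Myl7 covariate Krt8 was -0.0201, Krt18 -0.0745 and Bnc1 0.16, and Bnc1 was 0.23 without replicates 19 and 22 as well. With the Upk3b covariate Msln was -0.0278, Krt8 -0.0761, Krt18 -0.19, Krt19 -0.0452 and Bnc1 0.0735. Leaving out each library, from the 12 or from the 10 unmarked, gave -0.40 to 0.54 (Msln), -0.39 to 0.20 (Upk3b), -0.46 to 0.28 (Upk1b), -0.59 to 1.26 (Krt8), -0.54 to 1.08 (Krt18), -0.61 to 1.24 (Krt19), -0.35 to 0.60 (Lrrn4) and -0.71 to 0.17 (Bnc1).

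With the marked libraries included, 9 of the 20 relations with Myl7 and Adipoq passed 0.05 by permutation of r. Libraries apart in the x gene were still left out, so these relations used 10 libraries for Myl7 and 11 for Adipoq. HKII+/- replicates 19 and 22 were left out for Myl7, and HKII+/- replicate 11 for Adipoq. Over the unmarked libraries, by the same rule, 13 of the 20 passed. Leaving out each library gave 0 to 16, with 0 in the absence of either of the HKII+/- replicates 19 and 22 (r with Adipoq of the 8 members was then 0.72 to 0.91 and 0.57 to 0.85, with 7 and 6 passing by rho), and 8 in the absence of HKII+/- replicate 12 or of HKII+/+ replicate 15, 17 or 21. With Adipoq over the 8 libraries 0 passed, where r was 0.21 for Wt1 and 0.31 for Upk1a. The r of Wt1 with Adipoq was 0.0883 with library totals and -0.533 (without HKII+/- replicate 12) to 0.0664 on leaving out each library. The same ranges for Upk1a were -0.0723 to 0.433 with Myl7 and -0.530 to 0.0677 with Adipoq. The Upk3b covariate and the fits without replicates 19 and 22 were added after seeing the data. Upk1a rests on few counts, and power with all 12 libraries was low on simulated data.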
